A study of Homo sapiens with 12 samples.

Results

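The genes described here are 10 genes of calcium handling and calcium-dependent transcription, chosen by name from the 58884 genes of the count table. They are the calcium pump genes ATP2A2 and ATP2A3, the calcium release channel genes ITPR1 and ITPR3, the calcium entry genes STIM1 and ORAI1, the transcription factor genes NFATC1, NFATC2 and NFATC3, and the potassium channel subunit gene KCNMB4. Their RNA was measured in U2932 and TMD8, established lines of diffuse large B-cell lymphoma (DLBCL) of the activated B-cell subtype, both labelled as wild type (WT). Cells were treated for 4 h with 20 µg/mL of rituximab (R) or ofatumumab (OF), monoclonal antibodies that bind different epitopes of the B-cell surface protein CD20, or with a human IgG1 isotype control. Each of the 6 conditions had 2 libraries, 12 in all. The replicates were cultures of 1 line that had been kept apart for a week, so p-values measure the spread between such cultures and not between patients. All 10 genes passed the filter on low counts in every fit.

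Calcium is held in the endoplasmic reticulum (ER) by SERCA pumps and is released through IP3 receptors after B-cell receptor signalling. Emptying of the store is sensed by STIM proteins, which open ORAI channels in the plasma membrane (store-operated entry). The raised cytosolic calcium activates calmodulin and calcineurin, and calcineurin removes phosphate from NFAT factors, which then enter the nucleus. CD20 itself has long been linked to calcium flux in B cells. All of these steps act on proteins, and the values here are levels of RNA.

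Levels are given as CPM, counts scaled to a common library size with the factors of the TMM method (trimmed mean of M values). Genes are compared with one another only in CPM per kb of annotated transcript. Differences are log2 fold changes with their standard error (SE). A gene passed the test when its p from edgeR's quasi-likelihood test, adjusted by Benjamini-Hochberg over all genes tested, was under 0.10. The 95% intervals were set from the SE with the normal distribution, which takes no account of the few libraries. They are therefore narrower than the quasi-likelihood test implies and are approximate. For NFATC2 with R against isotype in TMD8 the interval was wholly negative (-2.05 to -0.18), although the unadjusted edgeR p was 0.0531. These were bulk samples, so fewer cells of a type and less RNA per cell cannot be told apart.

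The libraries held 15440226 to 27110612 counts. The B-cell markers MS4A1, CD79A, CD79B, PAX5 and CD22 each had at least 738 counts in every library. The 4 T-cell markers summed to at most 3 counts per library and the 4 myeloid markers to at most 22. TMD8 OF replicate 2 and TMD8 isotype replicate 2 stood apart from the others. Their share of counts on ribosomal protein genes was 7.78% and 7.05%, and the other 4 TMD8 libraries had 10.9 to 11.8%. Mitochondrial genes took 3.73% and 3.99%, against 5.70 to 6.23%. The median change between replicates was also large there, with an absolute log2 difference over all genes of 0.33 for OF and 0.37 for isotype, against 0.15 for R. Of the 10 genes, 8 were higher in replicate 2 of TMD8 isotype and 8 were higher in replicate 2 of TMD8 OF, with median log2 differences of 0.82 and 0.57. TMD8 results are therefore also given without these 2 libraries where a call changed, and for some changes of direction. In that fit the lone remaining OF and isotype libraries are assumed to vary like the other groups.

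**Figure D1:**
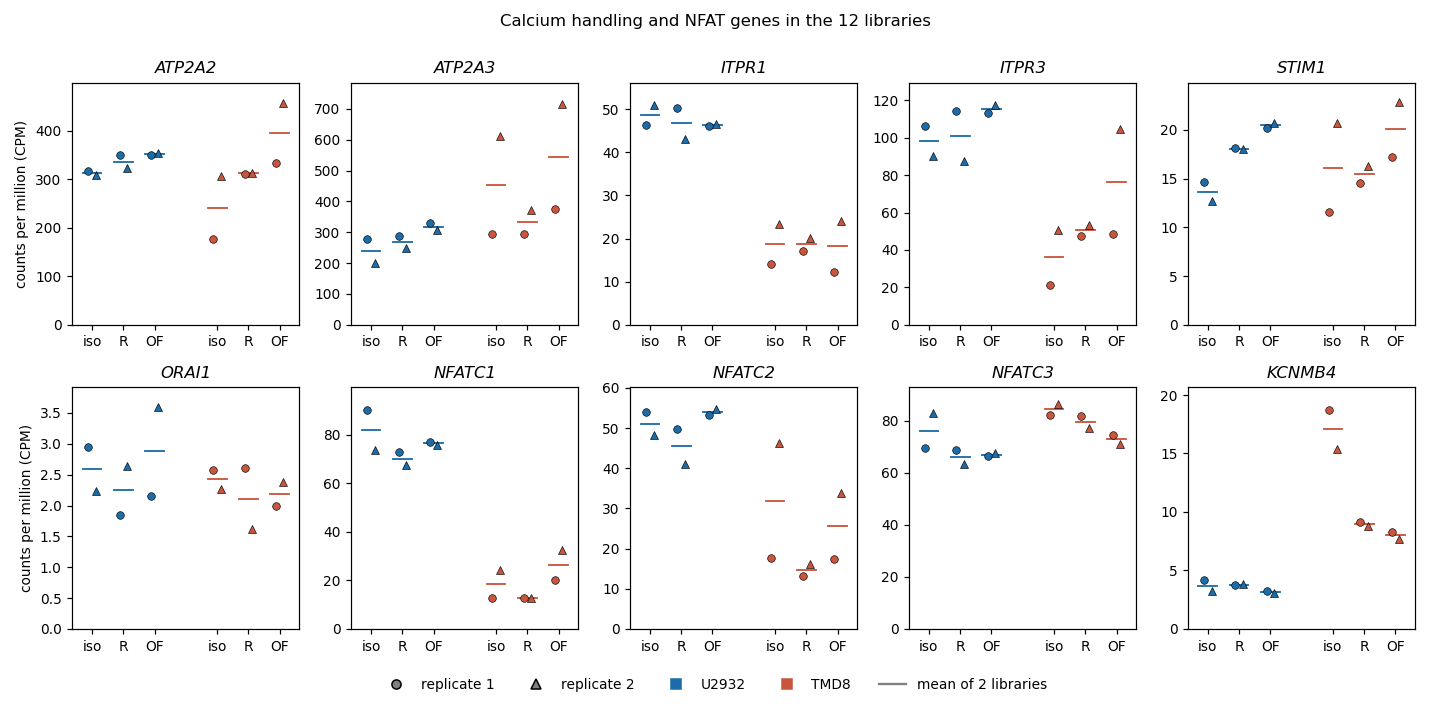
Level of each of the 10 genes in CPM (vertical axes, starting at 0) in the 12 libraries, by cell line (colour), treatment (iso, isotype) and replicate number (circle, 1; triangle, 2), with a bar at the mean of the 2 libraries. In the TMD8 isotype and OF groups the replicate 2 library sits above replicate 1 for 8 of the 10 genes, whereas the KCNMB4 isotype libraries of TMD8 (18.7 and 15.4 CPM) both lie above all 4 antibody libraries (7.67 to 9.11 CPM).

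Baseline levels were compared under isotype between the lines, since neither line then carried an anti-CD20 antibody. NFATC1, ITPR1 and ITPR3 were higher in U2932, and KCNMB4 and ATP2A3 were lower. These 5 of 10 genes passed the test, while 66.8% of all 16187 genes tested passed it (33.2% higher and 33.7% lower in U2932). All 5 also differed by at least 1.5-fold, as did 56.1% of all genes. The share among the 10 genes was thus not above that of all genes. The median log2 difference of the 10 genes was 0.24, against -0.02 over all genes. In 7 of the 10 genes the isotype libraries of the lines did not overlap, which was the case for 75.9% of all genes. Without the 2 TMD8 libraries that stood apart 7 of the 10 passed, as did 70.1% of all genes.

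The SERCA pump genes had the highest levels of the 10 per kb of transcript. ATP2A2 (chr12:110280756-110351093, GRCh38, plus strand) encodes SERCA2, the pump of most cell types. It had 318 and 308 CPM in the U2932 isotype libraries and 176 and 306 CPM in those of TMD8. The lines did not overlap, but the distance was small beside the gap between the TMD8 libraries, and the log2 difference of 0.37 (SE 0.22) did not pass the test (edgeR adjusted p = 0.167). With the replicate number as a block within each line it did (0.65, SE 0.17, edgeR adjusted p = 0.00514), and without the 2 TMD8 libraries it was 0.83. ATP2A3 (chr17:3923870-3964464, minus strand) encodes SERCA3, which is typical of blood cells. Its isotype values were 278 and 199 CPM in U2932 and 295 and 612 CPM in TMD8. All U2932 values were lower, and the log2 difference was -0.93 (SE 0.34, edgeR adjusted p = 0.0356). This call rested on single libraries. It was lost without U2932 isotype replicate 2 (adjusted p = 0.220), without TMD8 isotype replicate 2 (-0.31, adjusted p = 0.387) and with the replicate block (-0.34, adjusted p = 0.115), and the value was -0.31 (adjusted p = 0.0483) without the 2 TMD8 libraries that stood apart. Per kb of transcript, ATP2A2 had 54.9 ± 1.25 (SD, n = 2) and ATP2A3 49.4 ± 11.7 CPM under isotype in U2932, against 42.3 ± 16.1 and 94.0 ± 46.4 in TMD8. The difference between the pumps was smaller than the SD of ATP2A3 in U2932 and larger in TMD8, where both SDs rest on isotype libraries that stood far apart.

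The IP3 receptor genes were both higher in U2932. ITPR1 (chr3:4493345-4847840, plus strand) had 46.3 and 51.1 CPM under isotype in U2932 and 14.2 and 23.4 CPM in TMD8. The groups were well apart, with a log2 difference of 1.36 (SE 0.28, adjusted p = 0.00137), a 2.58-fold higher level. ITPR3 (chr6:33620365-33696574, plus strand) had 106 and 90.1 CPM in U2932 against 21.4 and 50.6 CPM in TMD8, with a log2 difference of 1.44 (SE 0.38, adjusted p = 0.00645). Its size depended on the TMD8 isotype library used, being 2.20 without replicate 2 and 0.96 without replicate 1, and it passed in both cases. Exons of ITPR1, STIM1 and NFATC3 overlap those of other annotated genes, in part on the same strand for STIM1 and NFATC3. What this did to their counts was not tested. Exons of ITPR3 overlap those of UQCC2 on the opposite strand. UQCC2 had 272 to 1187 counts per library and was likewise higher in U2932 (1.29), and how far shared reads entered either value was not tested because the strand setting of the counting was not given in the sources used here. The related ITPR2, not among the 10, had the highest level of the 3 receptors per kb in both lines, with medians of 17.1 CPM per kb in U2932 and 15.6 in TMD8 over the 6 libraries of each line.

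The store-operated entry genes among the 10 were low in both lines and did not pass the test between them. STIM1 (chr11:3854527-4093210, plus strand), the ER calcium sensor, had 14.6 and 12.7 CPM under isotype in U2932 and 11.5 and 20.7 CPM in TMD8, so the groups overlapped (log2 difference -0.25, SE 0.23, adjusted p = 0.379). Its direction depended on the TMD8 isotype library used, being -0.59 (adjusted p = 0.0107) without replicate 1 and 0.24 without replicate 2, and 0.24 (adjusted p = 0.202) without the 2 libraries. ORAI1 (chr12:121626550-121642677, plus strand), the pore subunit of the entry channel, had 2.95 and 2.24 CPM in U2932 and 2.57 and 2.27 CPM in TMD8 (0.11, SE 0.32, adjusted p = 0.790). It was read from 26 to 66 counts per library, and the 95% interval of its difference ran from -0.52 to 0.73. The paralogues STIM2 and ORAI2 were more abundant per kb in both lines, and ORAI3 was not. STIM2, a sensor that responds to smaller losses of store calcium, had 46.8 ± 4.43 (SD, n = 2) CPM per kb under isotype in U2932 and 7.57 ± 0.654 in TMD8, whereas STIM1 had 3.14 ± 0.313 and 3.70 ± 1.49. STIM2 was higher in U2932 by 2.63 (SE 0.14, adjusted p = 3.34e-08). ORAI2 had 14.9 ± 2.75 and 10.1 ± 1.79 CPM per kb against 1.21 ± 0.238 and 1.13 ± 0.0984 for ORAI1, and was higher in U2932 by 0.56 (SE 0.19, adjusted p = 0.0207), a call lost without U2932 isotype replicate 1 (adjusted p = 0.173). ORAI3 was lower in U2932 (-1.35, SE 0.35, adjusted p = 0.00618), from 23 to 92 counts per library.

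Among the NFAT genes the lines differed most in NFATC1. NFATC1 (chr18:79395856-79529325, plus strand), the member known for raising its own transcription after stimulation, had 90.3 and 73.8 CPM under isotype in U2932 and 12.8 and 24.2 CPM in TMD8. It was 4.39-fold higher in U2932, with a log2 difference of 2.14 (SE 0.28, adjusted p = 4.36e-05). NFATC2 (chr20:51386957-51562831, minus strand) had 54.0 and 48.2 CPM in U2932 and 17.6 and 46.2 CPM in TMD8. The U2932 values were higher throughout, but TMD8 isotype replicate 2 came close to them, and the log2 difference of 0.67 (SE 0.37) did not pass (adjusted p = 0.140). It passed with the replicate block (1.32, SE 0.21, adjusted p = 1.06e-04) and without the 2 TMD8 libraries (1.53, SE 0.15, adjusted p = 7.56e-11). NFATC3 (chr16:68084751-68229259, plus strand) had 69.5 and 82.8 CPM in U2932 and 82.3 and 86.6 CPM in TMD8, and these overlapped (-0.15, SE 0.12, adjusted p = 0.308). Per kb, NFATC1 was the most abundant of the 3 under isotype in U2932 at 17.0 ± 2.42 (SD, n = 2) CPM per kb, and NFATC3 was the most abundant in TMD8 at 13.3 ± 0.483.

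NFATC2 has annotated starts far apart in RefSeq (GRCh38.p14), and the 250 bases before them are shown because they differ in how often they hold GGAAA, the core that NFAT factors bind, on either strand. RefSeq windows were found for 7 of the 10 genes, and none was found for ATP2A3, ORAI1 and KCNMB4. The sequences below run 5′ to 3′ on the minus strand, with each GGAAA in capitals, and likewise its reverse complement TTTCC.
NFATC2, chr20:51562840-51563089: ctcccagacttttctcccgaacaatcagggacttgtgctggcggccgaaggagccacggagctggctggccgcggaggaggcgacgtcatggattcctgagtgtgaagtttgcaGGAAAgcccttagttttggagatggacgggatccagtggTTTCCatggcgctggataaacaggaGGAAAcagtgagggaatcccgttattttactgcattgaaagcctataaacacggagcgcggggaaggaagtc
NFATC2, chr20:51542720-51542969: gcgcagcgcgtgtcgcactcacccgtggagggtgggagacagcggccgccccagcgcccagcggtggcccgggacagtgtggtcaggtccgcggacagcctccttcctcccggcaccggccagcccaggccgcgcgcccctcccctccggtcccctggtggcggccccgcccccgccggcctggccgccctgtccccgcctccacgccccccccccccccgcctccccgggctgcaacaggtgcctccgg
The former window held the core 3 times and the latter did not hold it. Among all 35114 such windows 55.7% held it at least once. Counted by gene, with a hit in any of its windows, 3 of the 7 genes with windows held it (STIM1, NFATC1 and NFATC2). The 2 shares have unlike units, since a gene could have several windows (4 for STIM1, 1 for ITPR1). The counts are per gene, so the use of either start was not measured.

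KCNMB4 (chr12:70366276-70434292, plus strand) encodes the β4 subunit of BK channels, potassium channels opened by calcium and voltage. It had 4.16 and 3.24 CPM under isotype in U2932 and 18.7 and 15.4 CPM in TMD8. The lines were far apart and U2932 was lower by 2.20 on the log2 scale (95% interval -2.56 to -1.84, SE 0.18, adjusted p = 1.19e-06). KCNMA1, the gene of the BK channel pore with which the subunit assembles, had 0 counts in all 6 U2932 libraries and 10 to 25 counts in those of TMD8. KCNN4, the gene of another calcium-activated potassium channel of lymphocytes, had 15.0 ± 0.770 (SD, n = 2) CPM per kb under isotype in TMD8 and 0.582 ± 0.0891 in U2932 (log2 difference -4.68, SE 0.19, adjusted p = 5.92e-09).

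**Figure D2:**
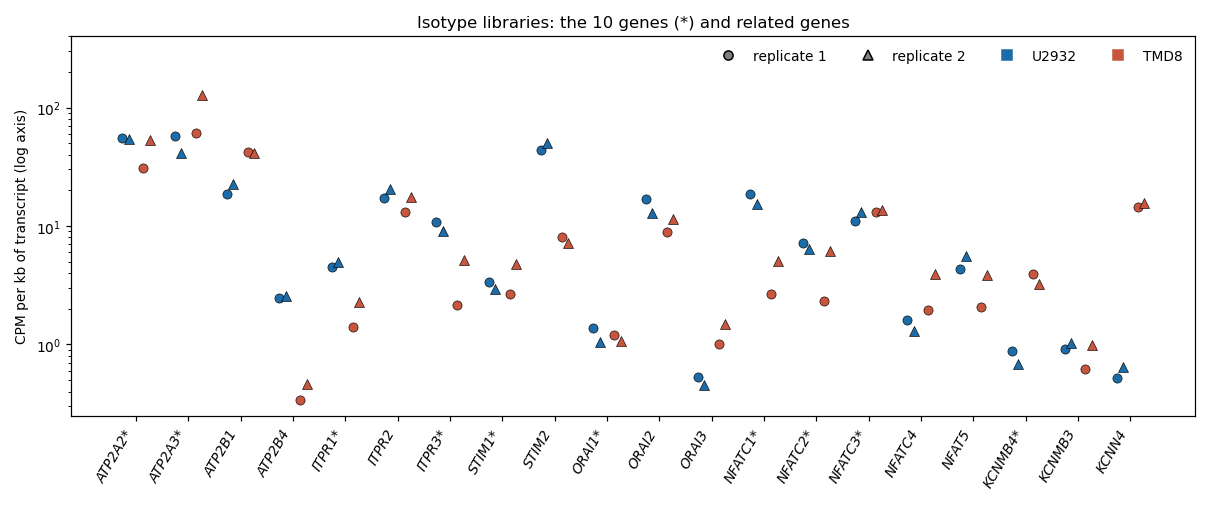
Isotype levels in CPM per kb of transcript (log axis) of the 10 genes (asterisks) and related genes, by cell line (colour) and replicate number (circle, 1; triangle, 2). STIM2 (46.8 against 7.57 CPM per kb) and NFATC1 (17.0 against 3.84) were higher in U2932, and KCNMB4 (0.783 against 3.61) and KCNN4 (0.582 against 15.0) were higher in TMD8.

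In U2932, the antibodies raised 1 or 2 of the 10 genes and lowered none past the test. STIM1 rose with both R and OF, and ATP2A3 rose with OF. With R, 1 of 10 genes passed the test, against 34.2% of all 14635 genes tested (16.8% higher and 17.4% lower). With OF, 2 of 10 passed, against 36.4% (18.7% higher and 17.8% lower). At 1.5-fold and more, none of the 10 passed with R and 1 with OF, against 10.2% and 11.1% of all genes. The share of the 10 genes was below that of all genes in both comparisons, and their median log2 fold changes were -0.01 with R and 0.12 with OF, against -0.02 and 0.01 over all genes. R and OF were compared with the same isotype libraries, so these comparisons are not independent.

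STIM1 had 14.6 and 12.7 CPM under isotype in U2932, 18.1 and 18.0 CPM with R, and 20.3 and 20.8 CPM with OF. Neither antibody group overlapped isotype. R raised it 1.32-fold, a log2 fold change of 0.40 (SE 0.12) with an edgeR adjusted p of 0.0153. OF raised it 1.51-fold (log2 0.59, SE 0.12), and there the edgeR adjusted p was 0.000636. Both calls held when any 1 of the 4 libraries compared was left out (adjusted p at most 0.0907 with R and 0.0112 with OF) and with DESeq2 (adjusted p = 0.0436 and 0.00232), which called 13.6% and 14.6% of all genes with a count. Both were lost when all 12 libraries, with the wider spread of TMD8, were put in a single fit (adjusted p = 0.402 and 0.196). ORAI1, its partner, had 1.85 and 2.65 CPM with R and 2.16 and 3.60 CPM with OF against 2.95 and 2.24 CPM under isotype. These groups overlapped, and at 33 to 66 counts per library the 95% intervals of the ORAI1 log2 fold change ran from -0.75 to 0.35 with R and from -0.38 to 0.70 with OF.

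ATP2A3 had 278 and 199 CPM under isotype in U2932, 289 and 250 CPM with R, and 330 and 307 CPM with OF. The OF libraries lay above isotype and the R libraries overlapped it. For OF the log2 fold change was 0.42 (SE 0.11) and passed (adjusted p = 0.00554), and for R it was 0.18 (SE 0.11, adjusted p = 0.262). U2932 isotype replicate 2 decided the OF call, which was lost without it (0.20, adjusted p = 0.132) and with DESeq2 (adjusted p = 0.131). With the replicate block ATP2A3 also passed for R (0.19, adjusted p = 0.0833). ATP2A2 lay between 308 and 354 CPM in all 6 U2932 libraries, and both antibody groups were just above isotype. Its log2 fold changes of 0.11 with R and 0.17 with OF did not pass (adjusted p = 0.380 and 0.121), and the latter passed with the replicate block (adjusted p = 0.0876) and with DESeq2 (adjusted p = 0.0865).

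The IP3 receptor genes did not pass in U2932. ITPR1 had 50.4 and 43.2 CPM with R, 46.1 and 46.6 CPM with OF and 46.3 and 51.1 CPM under isotype, all overlapping, with log2 fold changes of -0.06 and -0.06 (95% intervals -0.26 to 0.14 with R and -0.27 to 0.14 with OF). ITPR3 had 114 and 87.6 CPM with R, 113 and 117 CPM with OF and 106 and 90.1 CPM under isotype. OF lay above isotype and R overlapped it, and the OF value of 0.23 on the log2 scale (SE 0.11, adjusted p = 0.113) passed with the replicate block (0.24, adjusted p = 0.0363).

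None of the 3 NFAT genes passed in U2932. NFATC1 had 73.1 and 67.5 CPM with R, 77.3 and 75.7 CPM with OF, and 90.3 and 73.8 CPM under isotype. R lay below isotype (log2 -0.22, SE 0.10, adjusted p = 0.106), which passed with the replicate block (-0.22, adjusted p = 0.0639), and OF overlapped it (-0.10, adjusted p = 0.518). NFATC3 was below isotype with both antibodies, at 68.9 and 63.4 CPM with R and 66.4 and 67.5 CPM with OF against 69.5 and 82.8 CPM. Its log2 fold changes were -0.20 with R and -0.18 with OF (adjusted p = 0.140 and 0.185), and both passed when U2932 isotype replicate 1 was left out (-0.33 and -0.31). NFATC2, at 49.7 and 41.1 CPM with R, 53.2 and 54.7 CPM with OF and 54.0 and 48.2 CPM under isotype, had log2 fold changes of -0.17 and 0.09. After a correction for GC content NFATC1 passed with both antibodies (-0.28, adjusted p = 0.00258, for R and -0.25, adjusted p = 0.00618, for OF), and NFATC2 (-0.19) and NFATC3 (-0.19) passed for R, where 40.9% and 40.2% of all genes did, and 40.1% and 39.1% with that correction and the replicate block. U2932 isotype replicate 2 had the GC span farthest from 0 in its line (-0.34, against -0.07 to 0.19), and the part of GC content in the uncorrected values was not tested. KCNMB4 had 54 to 93 counts per library in U2932, and its log2 fold changes were 0.03 for R and -0.24 for OF (95% intervals -0.38 to 0.45 and -0.67 to 0.19).

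With the replicate block, 3 of the 10 genes passed with R and 4 with OF in U2932, where 37.1% and 39.5% of all genes did. The R and isotype libraries did not overlap for 4 genes (2 up, 2 down) and the OF and isotype libraries for 6 (4 up, 2 down), while 59.7% and 64.2% of all genes did not overlap.

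**Figure D3:**
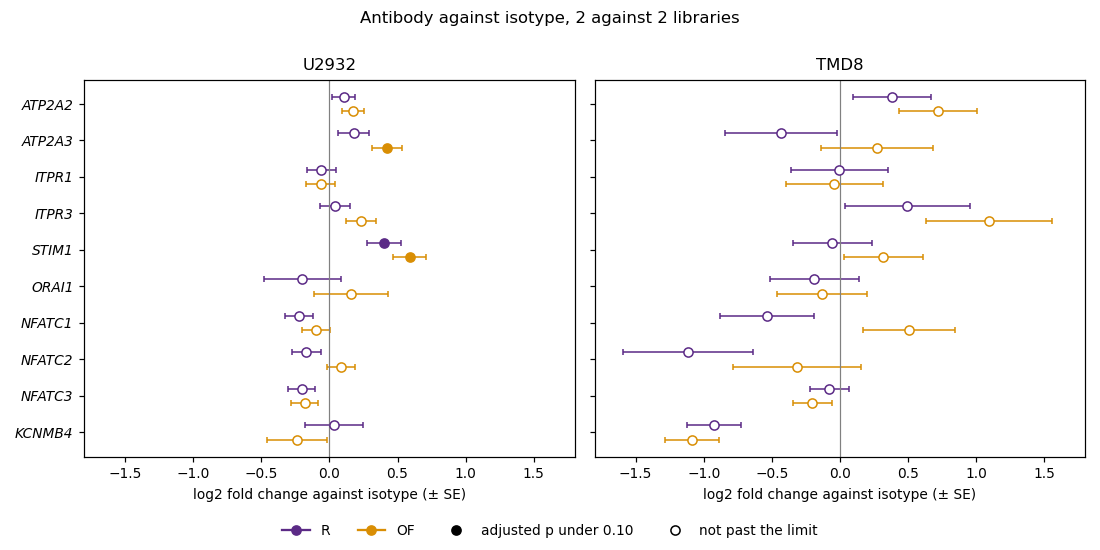
Log2 fold change against isotype (horizontal axis, bars ± SE) of the 10 genes with R and OF in U2932 and TMD8, 2 against 2 libraries, filled where the adjusted p was under 0.10. STIM1 with R and OF (0.40 and 0.59) and ATP2A3 with OF (0.42), all in U2932, are filled, and the bars of TMD8 are wider, with KCNMB4 at -0.92 and -1.09.

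In TMD8, none of the 10 genes passed the test with either antibody by edgeR. With R, 0.647% of all 14227 genes passed (0.401% higher, 0.246% lower), and with OF 0.815% (0.471% higher, 0.344% lower). At an unadjusted p under 0.05 the genes among the 10 were KCNMB4 with R, and ATP2A2 and KCNMB4 with OF, of 2265 and 2009 genes in all. DESeq2 called KCNMB4 with each antibody, and 2.05% and 1.58% of all genes with a count. The median log2 fold changes of the 10 genes were -0.13 with R and 0.12 with OF, against -0.02 and -0.01 over all genes.

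In TMD8, ATP2A2, NFATC3 and KCNMB4 each had all 4 antibody libraries on the same side of both isotype libraries. The share of all genes that did so was not computed. Taken singly, R did not overlap isotype for 47.9% of all genes and OF for 38.6%, against the same isotype libraries. KCNMB4 had the largest fold changes among the genes named. It had 18.7 and 15.4 CPM under isotype, 9.11 and 8.76 CPM with R, and 8.31 and 7.67 CPM with OF. All 4 antibody libraries lay well below both isotype libraries, and the counts were 328 and 433 under isotype against 119 to 141 with an antibody. On the log2 scale R gave -0.92 (SE 0.20) and OF -1.09 (SE 0.20), and both missed the limit by edgeR (adjusted p = 0.123 and 0.107). Both passed with the replicate block (-0.92, adjusted p = 0.0141, and -1.08, adjusted p = 0.00997), with DESeq2 (adjusted p = 0.0591 and 0.0202) and without the 2 libraries that stood apart (-1.06, adjusted p = 7.12e-05, and -1.17, adjusted p = 3.84e-04). Over all alternatives run, the log2 fold change ran from -1.07 to -0.75 with R (adjusted p 7.12e-05 to 0.894) and from -1.23 to -0.91 with OF (adjusted p 3.84e-04 to 0.406). Within each replicate number the antibody minus isotype difference in log2 CPM was -1.03 and -0.80 with R and -1.16 and -0.99 with OF.

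Neither SERCA gene passed in TMD8. ATP2A2 had 176 and 306 CPM under isotype, 311 and 312 CPM with R, and 334 and 457 CPM with OF. Both antibody groups lay above isotype, R only just above isotype replicate 2. R gave a log2 value of 0.38 (SE 0.28) and OF of 0.72 (SE 0.28), neither passing (adjusted p = 0.554 and 0.327). The OF value passed with the replicate block (0.74, adjusted p = 0.0458) and, without the 2 libraries, R was 0.83 (adjusted p = 8.34e-07) and OF 0.92 (adjusted p = 1.51e-06). ATP2A3 had 295 and 612 CPM under isotype, 295 and 371 CPM with R and 375 and 715 CPM with OF. The groups overlapped, with log2 fold changes of -0.44 and 0.27 (adjusted p = 0.648 and 0.833), and it did not pass in either of those fits (0.18 with R and 0.35 with OF without the 2 libraries).

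ITPR3 had 21.4 and 50.6 CPM under isotype, 47.5 and 53.3 CPM with R, and 48.6 and 104 CPM with OF in TMD8. Within each replicate number OF was higher than isotype by 1.18 and 1.04 in log2 CPM, and R by 1.15 and 0.08, so R stood out in replicate 1 but not in replicate 2. Neither passed, at 0.49 for R and 1.09 for OF on the log2 scale (SE 0.46 each, adjusted p = 0.643 and 0.357). The OF value passed with the replicate block (1.11, SE 0.23, adjusted p = 0.0255), and without the 2 libraries R was 1.24 (adjusted p = 3.73e-07) and OF 1.19 (adjusted p = 9.05e-06). UQCC2 on the opposite strand had log2 fold changes of -0.06 and -0.14 in TMD8. ITPR1 had 14.2 and 23.4 CPM under isotype, 17.2 and 20.1 CPM with R, and 12.2 and 24.2 CPM with OF, with overlapping groups and log2 fold changes of -0.01 and -0.04. Without the 2 libraries ITPR1 turned to 0.40 with R (adjusted p = 0.0723).

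STIM1, the gene that rose in U2932, had 11.5 and 20.7 CPM under isotype, 14.6 and 16.3 CPM with R, and 17.2 and 22.9 CPM with OF in TMD8. These overlapped, and the log2 fold changes were -0.06 with R (SE 0.29) and 0.32 with OF (SE 0.29), with adjusted p of 0.943 and 0.686. Without the 2 libraries they were 0.43 (adjusted p = 0.0721, a change of direction) and 0.58 (adjusted p = 0.0378). ORAI1 had 26 to 64 counts in the TMD8 libraries, with log2 fold changes of -0.19 and -0.13 and 95% intervals from -0.83 to 0.46 and from -0.78 to 0.51.

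NFATC2 had 17.6 and 46.2 CPM under isotype, 13.2 and 16.1 CPM with R and 17.5 and 33.7 CPM with OF in TMD8. R lay below isotype in both replicates and OF overlapped isotype. The log2 fold change with R was -1.12 (SE 0.48, adjusted p = 0.318), which passed with the replicate block (-0.99, SE 0.23, adjusted p = 0.0329) and without TMD8 isotype replicate 1 (-1.63, adjusted p = 0.0845), but was -0.26 (adjusted p = 0.279) without the 2 libraries. Its size thus rested on TMD8 isotype replicate 2. NFATC1 had 12.8 and 24.2 CPM under isotype, 12.7 and 12.7 CPM with R, and 20.1 and 32.6 CPM with OF. R lay just below the lower isotype value and OF overlapped isotype, and the log2 fold changes were -0.54 and 0.51 (SE 0.34 each, adjusted p = 0.488 and 0.559). Without the 2 libraries OF passed (0.65, adjusted p = 0.0139) and R was close to 0 (-0.005). NFATC3, at 82.3 and 86.6 CPM under isotype, 81.8 and 77.2 CPM with R and 74.7 and 71.1 CPM with OF, had log2 fold changes of -0.08 and -0.20 (adjusted p = 0.825 and 0.583), with both antibody groups below isotype.

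With the replicate block, 2 of the 10 genes passed with R and 3 with OF in TMD8, where 17.7% and 14.3% of all genes did. Without the 2 libraries, 5 of 10 passed with each antibody, where 25.5% and 19.2% of all genes did. The R libraries were apart from isotype for 5 genes (1 up, 4 down) and the OF libraries for 3 (1 up, 2 down), while 47.9% and 38.6% of all genes did not overlap. The GC content of the libraries differed as well. Against the mean of the line, genes in the top decile of GC content lay above those in the bottom decile by a log2 span of 0.47 in TMD8 OF replicate 2 and 0.32 in TMD8 isotype replicate 2, with -0.45 to 0.03 in the other 4 TMD8 libraries. Transcripts of the 10 genes ran from 45.8% (NFATC3) to 63.4% GC (ATP2A3). After a correction for GC content, KCNMB4 passed with R (-0.97, adjusted p = 0.0735) and OF (-1.05, adjusted p = 0.0674), and no other of the 10 genes passed in TMD8, where 3.44% and 3.23% of all genes did. Whether GC content accounts for the other values was not tested.

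**Figure D4:**
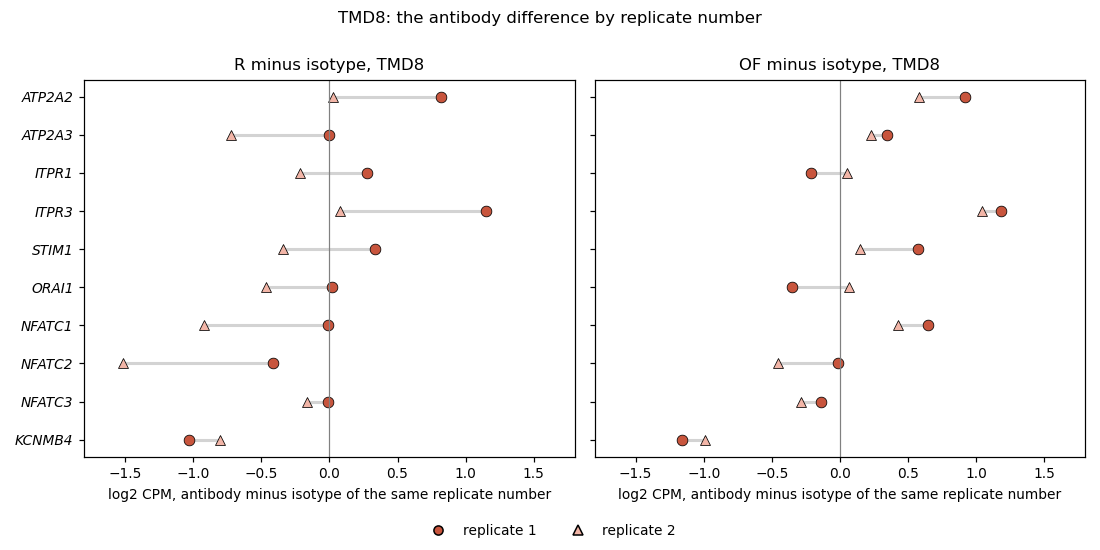
Antibody minus isotype in log2 CPM (horizontal axis) for each of the 10 genes in TMD8, taken within replicate 1 (dark circles) and within replicate 2 (pale triangles), with R on the left and OF on the right. KCNMB4 lies between -1.16 and -0.80 in all 4 differences and ITPR3 with OF at 1.18 and 1.04, whereas ATP2A2 with R lies at 0.82 and 0.03 and NFATC2 with R at -0.42 and -1.52.

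R and OF, which bind different epitopes, were then compared directly. None of the 10 genes passed in U2932 by edgeR, where 0.00683% of all genes (1 of 14635) did, and 0.0273% with the replicate block, and none passed in TMD8, where 0.00% did. In U2932, ATP2A3 and NFATC2 had an unadjusted p under 0.05, as did 747 genes in all, and in TMD8 NFATC1 did, as did 582 genes in all, and DESeq2 called none of the 10 genes in either line. The U2932 differences of R minus OF ran from -0.36 (ORAI1, 95% interval -0.92 to 0.20) to 0.27 (KCNMB4, -0.17 to 0.71), with adjusted p of at least 0.910. For STIM1 the difference was -0.19 (95% interval -0.43 to 0.05) and for ATP2A3 -0.24 (-0.46 to -0.02). In TMD8 the largest was NFATC1, with 12.7 and 12.7 CPM with R below 20.1 and 32.6 CPM with OF (log2 difference -1.05, 95% interval -1.72 to -0.37, adjusted p = 0.733). Without the 2 libraries it was -0.66 (adjusted p = 0.0481), and ITPR1 was 0.61 (adjusted p = 0.0825). For KCNMB4 the TMD8 difference was 0.16 (95% interval -0.23 to 0.56). The median log2 difference of the 10 genes was -0.16 in U2932 and -0.36 in TMD8, against 0.00 and 0.01 over all genes. The TMD8 median includes the 2 libraries that stood apart. In the fit without them ATP2A2 was -0.10, ATP2A3 -0.17, STIM1 -0.15 and NFATC2 -0.25. ITPR3 and ORAI1 changed direction there (0.05 and 0.08), and NFATC3 and KCNMB4 stayed positive (0.09 and 0.11). R was the lower for 4 genes and the higher for 1 by non-overlap in U2932, and the lower for 5 and the higher for 2 in TMD8, where 40.8% and 45.9% of all genes did not overlap.

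Whether an antibody acted differently in the lines was tested as an interaction over all 12 libraries. None of the 10 genes passed by edgeR or DESeq2, against 0.321% of all 16187 genes for R (0.142% higher, 0.179% lower) and 0.105% for OF (0.0556% higher, 0.0494% lower). At an unadjusted p under 0.05 KCNMB4 was the gene of the 10, among 1924 genes for R and 1369 for OF. KCNMB4 came closest, with the U2932 fold change above that of TMD8 by 0.96 for R (SE 0.26, adjusted p = 0.195) and 0.85 for OF (SE 0.26, adjusted p = 0.359). With the replicate block it passed for R (0.96, adjusted p = 0.0566), as did 6.04% of all genes. The STIM1 changes in U2932 and TMD8 were not shown to differ (0.47, SE 0.33, adjusted p = 0.609 for R and 0.28, SE 0.33, adjusted p = 0.915 for OF). These STIM1 values were -0.02 for R and 0.007 for OF without the 2 libraries that stood apart. Without the 2 libraries ATP2A2, ITPR3 and KCNMB4 passed for both antibodies and NFATC1 for OF, where 16.0% and 5.28% of all genes did.

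Beyond the 10 genes, 82 further genes of the pathway were listed by role, and 70 of them were tested in U2932 and 69 in TMD8. In U2932, 19 rose and 10 fell with R, and 21 rose and 11 fell with OF. Over all genes 34.2% and 36.4% passed in these comparisons (16.8% and 18.7% higher, 17.4% and 17.8% lower), and the difference from the listed genes was not tested. Their median log2 fold changes were 0.02 and 0.06. In TMD8, 2 rose with each antibody and none fell, where 0.647% and 0.815% of all genes passed.

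CALM3, a gene of calmodulin, which carries the calcium signal to calcineurin, rose in U2932 by 0.74 for R (SE 0.09, adjusted p = 5.10e-07) and by 0.83 for OF (SE 0.09, adjusted p = 1.11e-07). The calcineurin catalytic subunit PPP3CB fell by 0.30 with R and by 0.39 with OF (adjusted p = 0.0707 and 0.0182), the former lost without U2932 R replicate 1 or isotype replicate 1 and the latter without U2932 OF replicate 1, whereas PPP3CA (-0.15 and -0.10) and the regulatory subunit PPP3R1 (-0.08 and -0.03) did not pass. Of 18 calcineurin and calmodulin genes, 6 rose and 2 fell with R, and 5 rose and 3 fell with OF, beside 34.2% and 36.4% of all genes that passed.

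Of 9 tested NFAT factors, kinases and scaffolds outside the 10 genes, none rose and 4 fell with R, and 1 rose and 4 fell with OF, beside 17.4% and 17.8% of all genes that fell. NFATC4 fell (-0.66, adjusted p = 0.00856, with R and -0.63, adjusted p = 0.0122, with OF), as did CSNK1A1, the gene of a kinase that phosphorylates NFAT (-0.61, adjusted p = 1.44e-05, and -0.72, adjusted p = 1.69e-06). NFAT5, which is not regulated by calcineurin, did not pass (-0.21 and -0.16). The NFATC4 calls were lost when all 12 libraries were fitted together, and without U2932 R replicate 2 or U2932 OF replicate 1, respectively.

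Of 7 tested store-operated entry genes, 2 rose and 1 fell with each antibody (34.2% and 36.4% of all genes passed). ORAI3 rose by 1.14 for R (SE 0.30, adjusted p = 0.00594) and by 0.85 for OF (SE 0.32, adjusted p = 0.0442), from 26 and 23 counts under isotype to 41 and 47 with R and 39 and 29 with OF. DESeq2 did not call it with either antibody, and the OF call was lost without U2932 OF replicate 1 or isotype replicate 2. TRPC1 fell (-0.89, adjusted p = 0.00351, and -1.04, adjusted p = 0.00108). STIM2 (0.02 with each antibody) and ORAI2 (-0.08 and 0.16) did not pass. Among pumps and exchangers, the plasma membrane pump gene ATP2B1 fell (-0.45, adjusted p = 9.52e-04, and -0.59, adjusted p = 5.40e-05), the ER leak protein gene TMBIM6 rose (0.67, adjusted p = 1.25e-06, and 0.61, adjusted p = 5.35e-06), and the mitochondrial exchanger gene SLC8B1 rose (0.43, adjusted p = 0.0794, and 0.63, adjusted p = 0.00943), its R call being lost without U2932 R replicate 1 or isotype replicate 2. ATP2B4 (-0.17 and -0.00) and ATP2C1 (0.09 and -0.05) did not pass, nor did ITPR2 (-0.14 and -0.19). Of 7 genes of mitochondrial uptake, 4 rose and 1 fell with each antibody (over all genes 16.8% and 18.7% rose, and 17.4% and 17.8% fell).

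**Figure D5:**
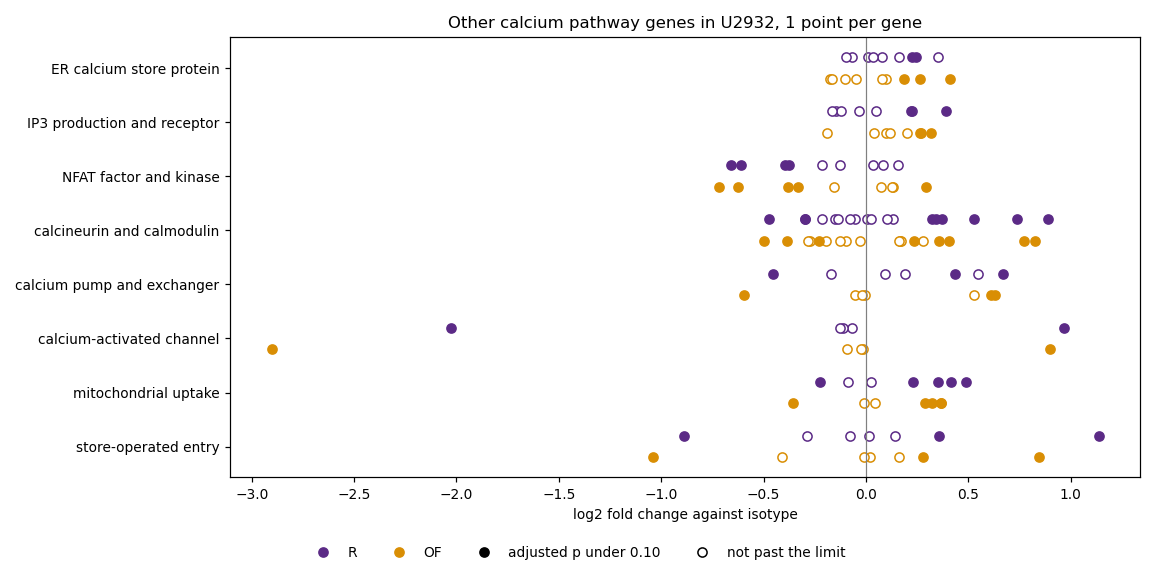
Log2 fold change against isotype (horizontal axis) of the 70 further pathway genes tested in U2932, 1 point per gene and antibody, by role, filled where the adjusted p was under 0.10. The points farthest to the left are TRPM4, read from 1 to 17 counts per library, and those farthest to the right are ORAI3 and KCNN4 (1.14 and 0.97 with R).

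KCNN4 and HSPA5 were the genes of the list that rose in TMD8. KCNN4 had 32.5 and 34.9 CPM under isotype, 80.0 and 67.5 CPM with R, and 102 and 89.4 CPM with OF. The groups were far apart, with log2 fold changes of 1.14 (SE 0.17, adjusted p = 0.0814) and 1.51 (SE 0.17, adjusted p = 0.0851). In U2932 KCNN4 rose as well, from 26 and 33 counts under isotype to 40 to 53 counts with an antibody (0.97 for R and 0.90 for OF, adjusted p = 0.0120 and 0.0193), but DESeq2 did not call it, and the calls were lost without U2932 R replicate 2 and without U2932 OF replicate 1 or isotype replicate 1, respectively. TRPM4, a calcium-activated cation channel, fell in U2932 from 17 and 14 counts under isotype to 4 and 2 with R and 2 and 1 with OF (adjusted p = 0.0181 and 0.00397). HSPA5, the gene of the ER chaperone BiP, had 282 and 285 CPM under isotype in TMD8 and 763 to 876 CPM in the 4 antibody libraries, with log2 fold changes of 1.46 (SE 0.18, adjusted p = 0.0697) and 1.54 (SE 0.18, adjusted p = 0.0851). In U2932 it had 906 and 970 CPM under isotype and 1047 to 1113 CPM with an antibody (0.23 for R and 0.18 for OF, adjusted p = 0.0260 and 0.0675). The TMD8 calls of HSPA5 were lost without R replicate 1 or 2 for R, and without OF replicate 1 or 2 or isotype replicate 1 for OF, and its log2 fold change ran from 1.32 to 1.49 for R and from 1.43 to 1.64 for OF over all alternatives. Those of KCNN4 were lost without the same libraries and, for R, also without isotype replicate 2, with values from 1.00 to 1.32 and from 1.36 to 1.65. With the replicate block, 16 of the 69 genes rose and 7 fell with R in TMD8, and 9 rose and 3 fell with OF, where 17.7% and 14.3% of all genes passed. Under isotype 26 of 71 further genes were higher and 22 lower in U2932, where 66.8% of all genes passed, among them ATP2B4 (2.63, adjusted p = 4.73e-07), ATP2C1 (0.51, adjusted p = 0.00265) and NFAT5 (0.73, adjusted p = 0.0611) higher, and PPP3CA (-1.06, adjusted p = 1.34e-04), PPP3CB (-0.97, adjusted p = 1.12e-04) and ATP2B1 (-1.02, adjusted p = 7.16e-05) lower.

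For ATP2A3 and KCNMB4, the genes with the most similar profile over the 12 libraries were sought among 16186 genes, after the mean of each line was subtracted from log2 CPM. For ATP2A3 they were ABCA7, AP2A1 and PROSER3 (Pearson r of 0.992, 0.991 and 0.989), and for KCNMB4 they were SPSB2, SRR and ENSG00000273240 (0.970, 0.964 and 0.957). The libraries share treatment, depth and base composition, so these values describe the profiles only.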

How the data were processed

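RNA from 12 libraries was sequenced, with 2 libraries for each of 3 treatments in U2932 and TMD8. The authors deposited raw counts per gene, not normalized, made by trimming and by aligning to the human genome with STAR. The submitters' processing notes name Trim Galore 0.6.0, STAR 2.7.0e, DESeq2 1.26.0 and GRCh38. The annotation release and the strand setting are not given in the sources used here. All 58884 gene identifiers were used, with symbols, positions, lengths and GC content from GENCODE 29 (GRCh38). Library totals of 15440226 to 27110612 counts are among the limits on the precision of low genes.

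Counts were tested with edgeR 4.0.16 (R 4.3.3; filterByExpr, TMM, glmQLFit, glmQLFTest) over the 6 libraries of a line, or over all 12 for comparisons between lines, with Benjamini-Hochberg adjustment over all genes tested. Scripts were tested on simulated data. Alternatives were DESeq2 1.42.0, other scalings and filters, a replicate block, GC content correction, other sets of libraries, and leaving out each library. For 2 against 2 libraries an exact permutation test cannot go below p = 0.333, so none was used.

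The study's protocol split each line into 2 cultures before treatment, and the replicate number was taken to mark the culture. Deviations of same-numbered libraries correlated at 0.22, 0.23 and 0.69 in TMD8 and at -0.05, 0.10 and -0.0007 in U2932. In U2932 the pairing thus rests on the protocol alone. The block is printed beside a result where it changed the call.

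The text names all 10 genes in every comparison, a fixed set of related pathway genes where tested, the 3 genes most like ATP2A3 and KCNMB4, and any list gene that passed with at least 1.5-fold against isotype in either line. Genes and lists were chosen with earlier results of these data known. Promoter windows are from RefSeq, GRCh38.p14. Some list genes are not reported here.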

Additional observations from a re-analysis of the deposited data

Results flagged for a closer look

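The change of HSPA5 and of TRPM4 against isotype differed between the lines by the interaction test over all 12 libraries. For HSPA5 the log2 fold change in U2932 minus that in TMD8 was -1.22 for R (SE 0.18, edgeR adjusted p = 0.0399) and -1.35 for OF (SE 0.18, edgeR adjusted p = 0.0270). The antibody libraries lay above the isotype libraries in both lines, at 1047 to 1113 against 906 and 970 CPM in U2932 and at 763 to 876 against 282 and 285 CPM in TMD8. The HSPA5 interaction was called in 13 of 19 alternatives for R and in 15 of 19 for OF, and the other fits each left out 1 library. For TRPM4 the fitted interaction was -2.38 for R (edgeR adjusted p = 0.0511) and -3.50 for OF (edgeR adjusted p = 0.0270). TRPM4 had 17 and 14 counts under isotype in U2932, 4 and 2 with R, and 2 and 1 with OF. These fitted values thus rest on very few counts, and their size is uncertain. In TMD8 it had 71.3 and 70.0 CPM under isotype, 91.3 and 88.7 CPM with R, and 108 and 105 CPM with OF.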

How the results depend on the processing

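The share of all genes that passed differed between settings. With GC content correction it was 40.9% for R and 40.2% for OF in U2932, and 3.44% and 3.23% in TMD8. With that and the block it was 40.1% and 39.1% in U2932, 16.6% and 15.8% in TMD8, and 70.1% between the lines. For the interactions it was then 3.26% for R and 2.96% for OF. Some counts below stand without such a share. The number of the 10 genes past the test also moved with the processing in most comparisons, and the cause was not tested. For R in U2932 (1 as reported) it was 4 with library size only, 2 without a filter, 2 with at least 10 counts in every library, 4 with GC content correction, 4 with GC content correction and the replicate block, 0 at 1.5-fold, 0 with all 12 libraries in a single fit, and 1 to 3 when a library was left out. For OF in U2932 (2) it was 4 with GC content correction, 4 with that and the block, 1 at 1.5-fold, 0 with all 12 libraries, and 2 to 5 when a library was left out, with 5 without isotype replicate 1. For R in TMD8 (0) it was 1 with DESeq2, 2 without a filter, 1 with GC content correction, 3 with that and the block, 1 with all 12 libraries, 5 without the 2 libraries that stood apart, and 0 to 1 when a library was left out. For OF in TMD8 (0) it was 1 with DESeq2, 3 without a filter, 1 with at least 10 counts in every library, 1 with GC content correction, 3 with that and the block, 2 with all 12 libraries, 5 without the 2 libraries, and 0 to 3 when a library was left out, with 3 without isotype replicate 2. For R against OF it stayed at 0 in U2932 in every alternative run, also at an adjusted p under 0.30, and in TMD8 (0) it was 1 without a filter and 2 without the 2 libraries. Between the lines under isotype (5) it was 8 with GC content correction and the block, 7 without the 2 libraries, and 4 to 6 when a library was left out. For the interactions (0) it was 1 without a filter for R, 1 with GC content correction and the block for each antibody, 3 for R and 4 for OF without the 2 libraries, and 0 to 1 when a library was left out. The direction of ITPR1 and STIM1 with R in TMD8 turned to 0.40 and 0.43 without the 2 libraries, and was lowest, at -0.30 and -0.39, without isotype replicate 1 of TMD8.

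With the replicate block the numbers were 3 for R and 4 for OF in U2932, 2 and 3 in TMD8, 6 between the lines, and 1 for the R interaction. The calls that the block changed are given beside each gene, and it changed no other call of the 10 genes.

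With 26 to 66 counts per library for ORAI1 in both lines and 54 to 93 for KCNMB4 in U2932, differences inside the intervals given could not be detected at this depth.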
